A study of Homo sapiens with 4 samples.

Results

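NF-kB is a family of transcription factors that act as pairs of subunits. This account follows the subunit genes NFKB1, NFKB2 and RELA, the inhibitor genes NFKBIA and NFKBIB, and the response genes TNFAIP3 and CCL2 in K562, a human line of chronic myelogenous leukaemia cells, after knockdown of the histone demethylase PHF8. The members were chosen by gene name: 8 names were given, 7 had rows in the table, and RELB is not analysed here. The 7 genes were among 11213 gene names, and their 22 transcripts were among 32551 transcripts. All 7 averaged 1 TPM or more and were tested, with 10972 genes in all. TPM is transcript abundance corrected for transcript length and put on a common total, so that every library sums alike.

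There were 2 libraries of cells transduced with a lentivirus carrying a control hairpin (shControl, labelled wild type) and 2 of cells transduced with a lentivirus carrying a hairpin against PHF8 (shPHF8, labelled PHF8 knockdown). Every library came from cells kept in the same medium with serum and selected with puromycin. No stimulus of the NF-kB pathway is named in the labels. The titles number the knockdown libraries 1 and 2, and it is not clear from the labels if these are replicates or hairpins. Separate cultures are not stated either, and a p-value then reflects only the spread between these samples, which may be technical.

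PHF8 was at 25.9 and 22.5 TPM in the shControl libraries and at 6.06 and 6.42 TPM in the shPHF8 libraries. The erythroid genes that mark K562 were abundant in every library: 12 of 12 listed markers were in the table and summed to 11044 and 11934 TPM in shControl and to 17685 and 16866 TPM in shPHF8. Markers of monocytes and macrophages, which are cells that also express NF-kB response genes, had rows for 7 of 13 listed genes. They summed to 175 and 197 TPM in shControl and to 108 and 96.6 TPM in shPHF8. All 7 of them, namely LYZ, CD68, ITGAM, SPI1, FCGR1A, S100A9 and TYROBP, had lower values at an unadjusted limma p under 0.05. Over all genes tested 12.1% were lower at this threshold and 9.9% higher, and 0 passed with Benjamini-Hochberg adjustment. ITGAM, FCGR1A, S100A9 and TYROBP had few TPM, and TYROBP was listed at 0 in both knockdown libraries. AZU1, CD3D and COL1A2, listed as markers of granulocytes, T cells and stromal cells, were lower at an unadjusted limma p under 0.05 too. Of the 12 erythroid markers 8 were higher and 0 lower at it, while GATA1 and EPOR had log2 differences of -0.14 and -0.26. CD14, CSF1R, FCN1, MS4A7, CD163 and S100A8 are not analysed here. The part of these markers in the results below was not tested, and in bulk RNA fewer cells of a type and less RNA per cell cannot be told apart.

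In resting cells NF-kB subunits are held in the cytoplasm by inhibitors of the IkB family. In the canonical route a receptor activates the IKK kinases, which phosphorylate IkB alpha and IkB beta so that they are degraded, and dimers such as the one of RELA and the NFKB1 product p50 enter the nucleus. In the non-canonical route the NFKB2 product p100, itself an inhibitor, is cut to p52. NF-kB raises transcription of some of its own inhibitors and of the enzyme A20, encoded by TNFAIP3, which close a negative feedback loop. It also raises transcription of chemokines such as CCL2.

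NF-kB dimers bind short DNA elements known as kB sites, and several of the genes followed here are themselves known targets. The stretches below show where letters matching the kB consensus lie in the 250 bases before annotated starts of these genes. They are from RefSeq on GRCh38.p14, which is not the build of the deposited table (hg19), and they are reference sequence, not measurements. Of 11 start windows of 250 bases found for 6 of the 7 genes, 6 held at least 1 match on either strand (overlapping matches were kept), against 11.9% of 12309 windows of the tested genes. CCL2 had no entry. A gene with several starts has several windows, so the member count leans on NFKB2 with 3. Each stretch is 30 bases long and written 5′ to 3′ on the strand of the gene, with the letters of all matches in capitals.
NFKB1, chr4:102501300-102501329, plus strand: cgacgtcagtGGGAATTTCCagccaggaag
NFKB2, chr10:102394462-102394491, plus strand: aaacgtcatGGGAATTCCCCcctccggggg
NFKB2, chr10:102394490-102394519, plus strand: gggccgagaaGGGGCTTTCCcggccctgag
NFKB2, chr10:102395519-102395548, plus strand: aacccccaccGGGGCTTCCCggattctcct
NFKB2, chr10:102395674-102395703, plus strand: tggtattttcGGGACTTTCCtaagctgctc
NFKBIA, chr14:35404811-35404840, minus strand: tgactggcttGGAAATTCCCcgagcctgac
NFKBIB, chr19:38899932-38899961, plus strand: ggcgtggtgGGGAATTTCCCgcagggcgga
TNFAIP3, chr6:137867188-137867217, plus strand: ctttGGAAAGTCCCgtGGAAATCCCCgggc
Genes with matches stood on either side of the control level in the knockdown libraries. NFKB2 and TNFAIP3 were lower there, and NFKB1 was higher. RELA had no match in its 2 windows. The first 2 NFKB2 stretches and the TNFAIP3 stretch lie wholly inside exons of those genes in GENCODE 29, so some transcripts start upstream of them. A match is a description of letters and not of binding.

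NFKB2 and NFKB1, which encode the precursors p100 and p105, stood apart in opposite directions in the knockdown libraries, and RELA gave no difference beyond its spread. NFKB2 was at 34.1 and 32.9 TPM in shControl and at 14.7 and 16.3 TPM in shPHF8. Both knockdown libraries were thus below both controls, with no overlap, and their mean of 15.5 ± 1.16 TPM (SD, n = 2) was 46.3% of the control mean of 33.5 ± 0.875 TPM. Its log2 difference, taken as shPHF8 minus shControl after adding 1 to each TPM, was -1.07 ± 0.13 (SE), with a 95% interval from -1.42 to -0.71. This gave an unadjusted limma p of 0.000961 and a Benjamini-Hochberg adjusted p over all genes of 0.0703, which did not pass the threshold of 0.05.

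NFKB1 was at 21.0 and 19.4 TPM in shControl and at 27.6 and 31.0 TPM in shPHF8. Here both knockdown libraries were above both controls, and the mean went from 20.2 ± 1.16 to 29.3 ± 2.45 TPM (SD, n = 2). The log2 difference of NFKB1 was 0.51 ± 0.13 (SE), with a 95% interval from 0.15 to 0.88, an unadjusted limma p of 0.0171 and a Benjamini-Hochberg adjusted p of 0.151. The unadjusted p of NFKB1 was 0.068 without shControl replicate 2 and 0.0907 without shPHF8 replicate 2.

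Set against each other within a library, TPM of NFKB2 over NFKB1 was 1.62 and 1.70 in shControl and 0.533 and 0.526 in shPHF8. NFKB2 was therefore the more abundant transcript of the pair in both control libraries and the less abundant in both knockdown libraries. This ratio was chosen after the values were seen and was not tested.

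RELA encodes p65, the subunit with the strong activation domain. It was at 18.7 and 37.6 TPM in shControl and at 16.9 and 20.9 TPM in shPHF8. The second control library stood at 2.01 times the first, and the groups overlapped. The log2 difference of RELA was -0.48 ± 0.37 (SE), with a 95% interval from -1.49 to 0.53, so levels from 0.356 to 1.45 times the control on the scale of TPM + 1 lie inside it (limma, Benjamini-Hochberg adjusted p = 0.502). It was 0.0050 without shControl replicate 2 and -0.96 without shControl replicate 1, where the unadjusted limma p was 0.022.

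**Figure D1:**
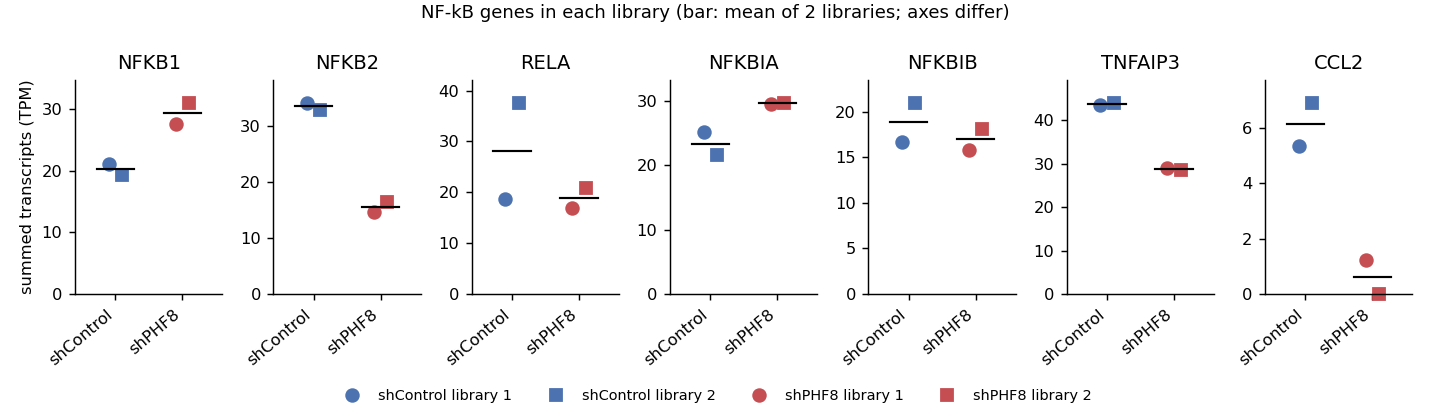
Summed TPM of each gene (vertical axis, starting at 0, with a scale of its own per gene) in the 2 shControl libraries (blue) and the 2 shPHF8 libraries (red); circles are library 1, squares library 2 and black lines group means. NFKB2, TNFAIP3 and CCL2 were lower in both knockdown libraries, NFKB1 and NFKBIA higher, and RELA and NFKBIB overlapped.

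Of the inhibitors, NFKBIA lay slightly above the controls in both knockdown libraries and NFKBIB overlapped. NFKBIA, which encodes IkB alpha, was at 25.1 and 21.6 TPM in shControl and at 29.6 and 29.7 TPM in shPHF8. The knockdown libraries were close together and above both controls by at least 4.45 TPM. The log2 difference of NFKBIA was 0.33 ± 0.13 (SE), with a 95% interval from -0.03 to 0.70 (limma, Benjamini-Hochberg adjusted p = 0.253).

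NFKBIB, which encodes IkB beta, was at 16.7 and 21.0 TPM in shControl and at 15.8 and 18.2 TPM in shPHF8. The groups were interleaved, and the log2 difference of NFKBIB was -0.14 ± 0.18 (SE), with a 95% interval from -0.63 to 0.35 (limma, Benjamini-Hochberg adjusted p = 0.683). In GENCODE 29 NFKBIB overlaps SIRT2 on the opposite strand by 163 bases, and the strandedness of the libraries is not given in the sources used here, so reads of the overlap cannot be assigned.

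Both response genes were lower in the knockdown libraries. TNFAIP3 was at 43.5 and 44.1 TPM in shControl and at 28.97 and 28.6 TPM in shPHF8. It had the closest pairs of the 7 genes in shControl, at 43.8 ± 0.366 TPM (SD, n = 2), and both knockdown libraries lay at least 14.6 TPM lower. The knockdown mean of 28.8 ± 0.249 TPM was 65.7% of the control mean. The log2 difference of TNFAIP3 was -0.59 ± 0.10 (SE), with a 95% interval from -0.87 to -0.31 (limma, Benjamini-Hochberg adjusted p = 0.101). In GENCODE 29 the locus overlaps AL357060.1, an antisense gene, by 1046 bases.

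CCL2, a chemokine that attracts monocytes, was at 5.34 and 6.90 TPM in shControl, at 1.23 TPM in the first shPHF8 library and listed at 0 in the second. It was the least abundant of the 7, at the 10.6th percentile of mean TPM over all genes in the table, whereas the others lay between the 37.0th and the 57.3rd. The log2 difference of CCL2 was -2.25 ± 0.48 (SE), with a 95% interval from -3.56 to -0.93 (limma, Benjamini-Hochberg adjusted p = 0.121). It was -4.08 with a pseudocount of 0.1, and its unadjusted p was 0.057 without shControl replicate 2. CCL2 was not tested with a mean-TPM minimum of 5.

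**Figure D2:**
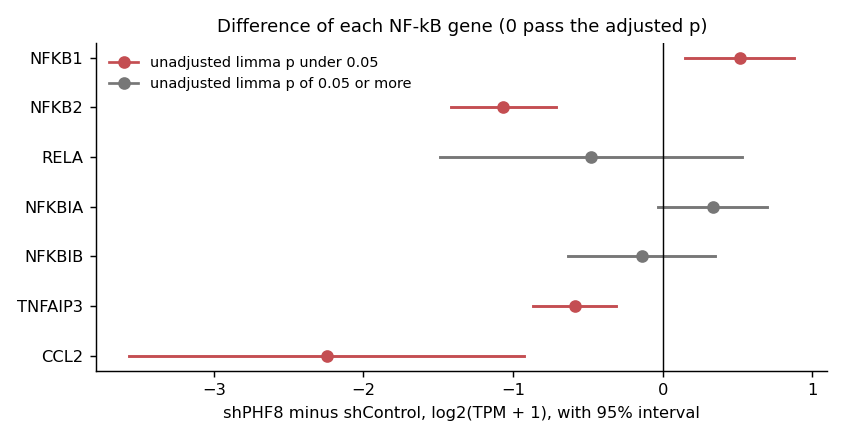
Log2 difference of each gene between shPHF8 and shControl after adding 1 to each TPM (horizontal axis, above 0 where shPHF8 is higher), with limma's 95% interval; red marks an unadjusted p under 0.05 and grey the rest. The intervals of NFKB1, NFKB2, TNFAIP3 and CCL2 leave out 0, and 0 of 7 genes passed the adjusted threshold.

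Counted together, 3 of the 7 genes (NFKB2, TNFAIP3 and CCL2) had lower values and 1 (NFKB1) a higher value at an unadjusted limma p under 0.05. Over all 10972 genes tested these shares were 12.1% lower and 9.9% higher. With Benjamini-Hochberg adjustment limma called 0 of the 7, and 0.0% of all genes. Groups did not overlap in 5 of the 7, with 3 lower and 2 higher, where the shares over all genes were 29.3% and 26.0%. The median log2 difference was -0.48 over the 7 and -0.02 over all genes tested. The median of the 7 is the value of RELA, whose groups overlapped and whose log2 difference was 0.0050 without shControl replicate 2. It therefore does not describe a shift shared by the 7. The members were proposed with results of these data known, so their count is a description. It was 2 without shControl replicate 2, with NFKB2 and TNFAIP3 left.

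The order of the 7 levels in TPM, which can be compared between genes because they are corrected for length, differed between the groups. In shControl it ran TNFAIP3, NFKB2, RELA, NFKBIA, NFKB1, NFKBIB and CCL2. NFKB2 and RELA, RELA and NFKBIA, and NFKB1 and NFKBIB overlapped in their ranges over the 2 libraries, while TNFAIP3 was above NFKB2 and CCL2 below all others in both libraries. In shPHF8 the order was NFKBIA, NFKB1, TNFAIP3, RELA, NFKBIB, NFKB2 and CCL2. The first 3 were at 29.7 ± 0.119, 29.3 ± 2.45 and 28.8 ± 0.249 TPM (SD, n = 2), with neighbours that overlapped. The next 3 lay at 18.9 ± 2.83, 17.0 ± 1.70 and 15.5 ± 1.16 TPM, again with neighbours that overlapped. NFKB2 thus moved from position 2 to position 6 of 7. TPM of TNFAIP3 over its fellow feedback gene NFKBIA was 1.73 and 2.04 in shControl and 0.980 and 0.962 in shPHF8, a ratio that was not tested.

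The table also splits each gene into transcripts, and here the libraries of a group differed far more than in the sums. RELA was led by a different transcript in each library. RELA-001, with 551 codons, took 94.0% of the gene's TPM in the first control library. RELA-002, with 548 codons, took 91.9% in the second and was listed at 0 in the 3 others. RELA-006, whose coding region lacks the last 620 bases of that of RELA-001 and with them the end that carries the activation domain, took 99.1% in the first knockdown library. RELA-201, which lacks 309 coding bases inside, took 48.4% in the second. The leading transcript thus differed within each group. Summed over RELA-001 and RELA-002 alone, RELA was at 17.6 and 34.5 TPM in shControl and at 0.149 and 8.79 TPM in shPHF8. These were 94.0% and 91.9% of the gene against 0.880% and 42.1%. RELA-201 was left out of this sum for its length, although its coding region keeps the end that RELA-006 lacks. It was at 10.1 TPM in the second shPHF8 library. The groups did not overlap without RELA-201, but counting it puts that library above the first control library. They also overlapped in the sum over all RELA transcripts, and the difference in the sum of RELA-001 and RELA-002 was not tested. Among 3227 tested genes with at least 4 transcripts, 52 (1.61%) had a different lead in each library.

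NFKB1 was split in nearly the same way everywhere. NFKB1-002 took 81.0% and 77.6% of its TPM in shControl and 80.3% and 80.1% in shPHF8. NFKB1-002 itself was at 17.0 and 15.0 TPM in shControl and at 22.1 and 24.9 TPM in shPHF8, with a log2 difference of 0.52 ± 0.18 (SE; limma, Benjamini-Hochberg adjusted p = 0.491). The higher NFKB1 level was therefore seen in its leading transcript, beyond both controls in both libraries.

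NFKB2 was divided mainly between NFKB2-001 and NFKB2-201, each with 899 codons and with starts at different places. NFKB2-001 was at 20.4 and 26.1 TPM in shControl and at 10.9 and 5.02 TPM in shPHF8, with no overlap and a log2 difference of -1.51 ± 0.43 (SE; limma over transcripts, Benjamini-Hochberg adjusted p = 0.408). NFKB2-201 was at 10.5 and 0.30 TPM in shControl and at 1.13 and 9.37 TPM in shPHF8, so its groups overlapped fully. Summed over the 3 transcripts with 899 or 900 codons, NFKB2 was at 32.0 and 29.2 TPM in shControl and at 12.9 and 14.5 TPM in shPHF8. The lower level of the gene was thus present in the transcripts that encode all of p100.

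NFKBIA was led by NFKBIA-004 in all 4 libraries, at 91.5% and 93.3% of its TPM in shControl and 96.0% and 98.6% in shPHF8. In GENCODE 29 this transcript has 227 codons and lacks the first 90 codons of NFKBIA-001, the end of IkB alpha that carries the serines phosphorylated by IKK. NFKBIA-001, with all 317 codons, was at 2.13 and 1.45 TPM in shControl and at 1.19 and 0.427 TPM in shPHF8. Its log2 difference was -0.65 ± 0.46 (SE; limma, Benjamini-Hochberg adjusted p = 0.689), while that of NFKBIA-004 was 0.40 ± 0.16 (Benjamini-Hochberg adjusted p = 0.538). The 2 transcripts stood on opposite sides of their controls, with no overlap in either. Over all transcripts tested, groups did not overlap in 22.2% on the lower side and 21.0% on the higher side. NFKBIA-001 had few TPM, and the difference between the 2 transcripts was not tested.

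TNFAIP3-205, with 669 codons, led TNFAIP3 in 3 libraries, at 63.2% and 61.8% in shControl and 65.9% in the second shPHF8 library. In the first shPHF8 library it took 9.37% and TNFAIP3-203 took 63.4%. These 2 transcripts differ by 1 base in length and share their first 536 and last 1924 bases in GENCODE 29, and TNFAIP3-203 has 214 codons. The sum of all TNFAIP3 transcripts differed by 1.01 times between the same 2 knockdown libraries. The transcripts with all 790 codons of A20, TNFAIP3-001 and TNFAIP3-201, summed to 7.09 and 7.67 TPM in shControl and to 4.15 and 6.0 TPM in shPHF8.

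NFKBIB-002 led NFKBIB in every library, at 71.2% to 96.8% of its TPM, and CCL2 had 1 transcript. Of the 22 transcripts of the 7 genes 21 were tested. NFKB2-001 and CCL2-001 had lower values at an unadjusted limma p under 0.05 and 0 had higher values, against 5.38% and 4.91% of 30266 transcripts tested. The 2 became 1 without either shControl library or with the replicate block, and 5 without either shPHF8 library. With Benjamini-Hochberg adjustment limma called 0 of the 21, and 0.0033% of all transcripts. Groups did not overlap in 9 lower and 3 higher of the 21, where the shares over all transcripts were 22.2% and 21.0%. The division of reads between transcripts that share most of their sequence is an estimate, on which the values of single transcripts depend.

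**Figure D3:**
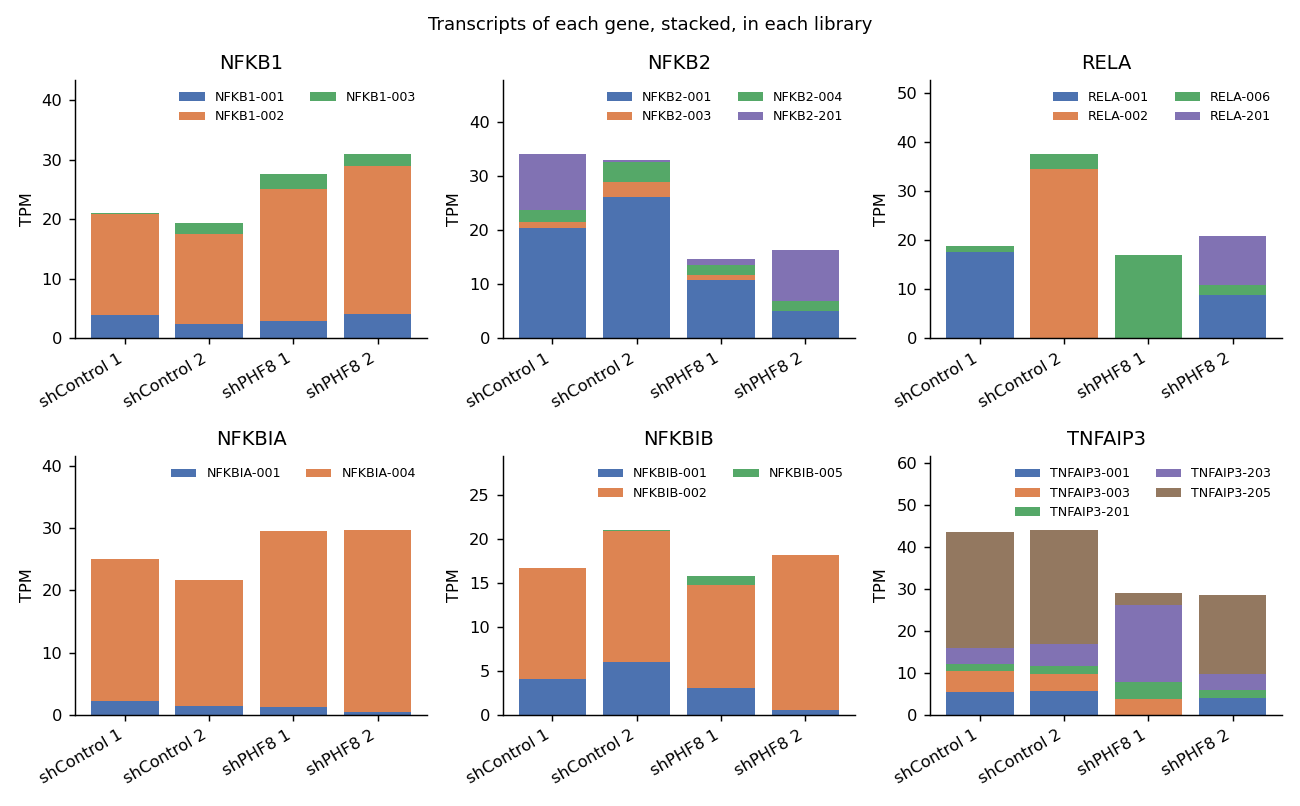
TPM of each transcript (colours, stacked from 0) of the 6 genes with more than 1 transcript, in each of the 4 libraries. The RELA bars are led by 4 different transcripts and the TNFAIP3 bar of shPHF8 1 by TNFAIP3-203, while NFKB1-002 and NFKBIA-004 lead in all 4 libraries.

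The rest of the pathway was described with 7 lists of 121 genes, of which 87 had rows and 86 were tested. At an unadjusted limma p under 0.05, 18 (20.9%) had lower values, beside 12.1% of all genes, and 2 (2.33%) had higher values, beside 9.9%. In both directions together this was 23.3% of those tested, near the 22.0% of all genes, with more of it on the lower side. The 20 genes became 12 without shControl replicate 2. With Benjamini-Hochberg adjustment limma called 0 of the 86. The median log2 difference was -0.14, beside -0.02 over all genes.

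Other members of the Rel and IkB families had values for REL, NFKBIE, NFKBIZ and BCL3, and BCL3 was below the filter. NFKBIE, which encodes IkB epsilon, was at 11.7 and 14.7 TPM in shControl and at 6.62 and 8.63 TPM in shPHF8, with a log2 difference of -0.72 ± 0.22 (SE; limma, Benjamini-Hochberg adjusted p = 0.188). It was the 1 of 3 tested that was lower at an unadjusted limma p under 0.05, and 0 were higher, beside 12.1% and 9.9% of all genes. The log2 difference of NFKBIE was -0.56 without shControl replicate 2 and -0.55 without shPHF8 replicate 1. NFKBIZ was at 2.22 and 7.31 TPM in shControl and at 1.97 and 1.90 TPM in shPHF8, so 1 control library set its difference. REL, the gene of c-Rel, was at 10.5 and 15.1 TPM in shControl and at 7.35 and 13.5 TPM in shPHF8, with overlapping groups.

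Receptors upstream of NF-kB had 10 tested genes of 20 listed, 3 of them lower and 0 higher at an unadjusted limma p under 0.05, beside 12.1% and 9.9% of all genes, with a median log2 difference of -0.01. TNFRSF12A, the receptor for TWEAK, was at 6.64 and 9.29 TPM in shControl and at 1.21 and 1.59 TPM in shPHF8 (log2 difference -1.89 ± 0.27). IL18R1, a chain of the interleukin-18 receptor, was at 10.4 and 9.68 TPM and at 3.60 and 2.52 TPM. CD40, a receptor of the non-canonical route, was at 2.49 and 3.58 TPM in shControl, at 0.956 TPM in 1 shPHF8 library and listed at 0 in the other. The lower receptors were thus genes of few TPM, and 1 was left with a mean-TPM minimum of 5. CD40 was on the other side of the threshold in 5 of 11 alternatives, among them those without either shControl library or shPHF8 replicate 2, and 1 receptor was higher without shControl replicate 2 or with the replicate block.

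Adaptors between receptors and IKK had 19 tested genes of 22, 3 lower and 1 higher, beside 12.1% and 9.9% of all genes, with a median of -0.04. IRAK1, a kinase below interleukin-1 and Toll-like receptors, was at 157 and 137 TPM in shControl and at 99.3 and 105 TPM in shPHF8 (log2 difference -0.52 ± 0.10). TRAF3IP2, an adaptor of interleukin-17 signalling, was at 11.5 and 16.2 TPM and at 6.61 and 4.39 TPM. IRAK2 was the higher one, at 3.06 and 4.40 TPM in shControl and at 7.69 and 7.53 TPM in shPHF8. IRAK2 did not reach an unadjusted p under 0.05 without shControl replicate 1 or without either shPHF8 library, and TRAF3IP2 did not without shControl replicate 2.

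The IKK complex and its upstream kinases, all 14 of them tested, had 1 lower and 1 higher gene, beside 12.1% and 9.9% of all genes, and a median of -0.10. CHUK, the IKK alpha gene, was at 49.9 and 46.6 TPM in shControl and at 57.1 and 62.1 TPM in shPHF8 (log2 difference 0.30 ± 0.10). IKBKE, the gene of IKK epsilon, was at 3.43 and 3.37 TPM in shControl and at 1.89 and 1.55 TPM in shPHF8. MAP3K8 had a log2 difference of -0.45 ± 0.18 and did not reach an unadjusted p under 0.05. CHUK and IKBKE were on the other side of that threshold under part of the alternatives, CHUK in 6 of 12 and IKBKE in 7 of 11.

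Ubiquitin enzymes and partners of A20 had 19 tested genes of 20, 2 lower and 0 higher, beside 12.1% and 9.9% of all genes, with a median of -0.13. RBCK1, a subunit of the linear ubiquitin ligase LUBAC, was at 73.4 and 68.5 TPM in shControl and at 50.0 and 46.5 TPM in shPHF8 (log2 difference -0.55 ± 0.10). UBE2N, the conjugating enzyme of K63-linked chains, was at 83.2 and 92.0 TPM and at 62.1 and 73.4 TPM. The 2 lower genes became 1 without shControl replicate 2 or shPHF8 replicate 1 and 4 without shPHF8 replicate 2, and UBE2N was on the other side of the threshold in 4 of 12 alternatives. The count of higher genes became 1 without either shPHF8 library. SKP1 had a log2 difference of 0.29 ± 0.11 and did not reach an unadjusted p under 0.05.

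The response genes other than TNFAIP3 and CCL2 did not all stand alike. Among 16 tested genes of 22 in the intracellular and surface list, 8 were lower and 0 higher at an unadjusted limma p under 0.05, against 12.1% and 9.9% of all genes, and their median log2 difference was -0.55. PLAU, the urokinase gene, was at 18.7 and 19.4 TPM in shControl and at 5.00 and 6.09 TPM in shPHF8 (log2 difference -1.62 ± 0.17; limma, Benjamini-Hochberg adjusted p = 0.0691). BCL2L1, which encodes BCL-xL, was at 227 and 226 TPM and at 157 and 132 TPM. SDC4, a syndecan, was at 26.7 and 24.7 TPM and at 16.5 and 14.7 TPM. The 8 lower genes became 4 without shControl replicate 2 and 5 without shPHF8 replicate 2. The sum of the monocyte and macrophage markers moved the same way as these genes, as given above, and its part was not tested.

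Of 18 cytokine and chemokine genes 5 were tested. At an unadjusted p under 0.05 limma gave 0 lower and 0 higher, beside 12.1% and 9.9% of all genes. Their median log2 difference was -0.03. CXCL8, the gene of interleukin-8, was at 11.5 and 14.5 TPM in shControl and at 9.56 and 8.0 TPM in shPHF8 (log2 difference -0.52 ± 0.20; limma, Benjamini-Hochberg adjusted p = 0.246). CXCL2 was at 15.7 and 15.8 TPM in shControl and at 16.9 and 16.2 TPM in shPHF8, a log2 difference of 0.06 ± 0.13. CXCL3 was at 18.5 and 15.6 TPM and at 20.3 and 12.3 TPM, with overlapping groups. CXCL8 was thus below both controls in both knockdown libraries, as CCL2 was, CXCL2 was above both by at least 0.324 TPM, and CXCL3 overlapped. Groups did not overlap in 1 lower and 1 higher of the 5, where the shares over all genes were 29.3% and 26.0%. The differences between these genes were not tested.

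**Figure D4:**
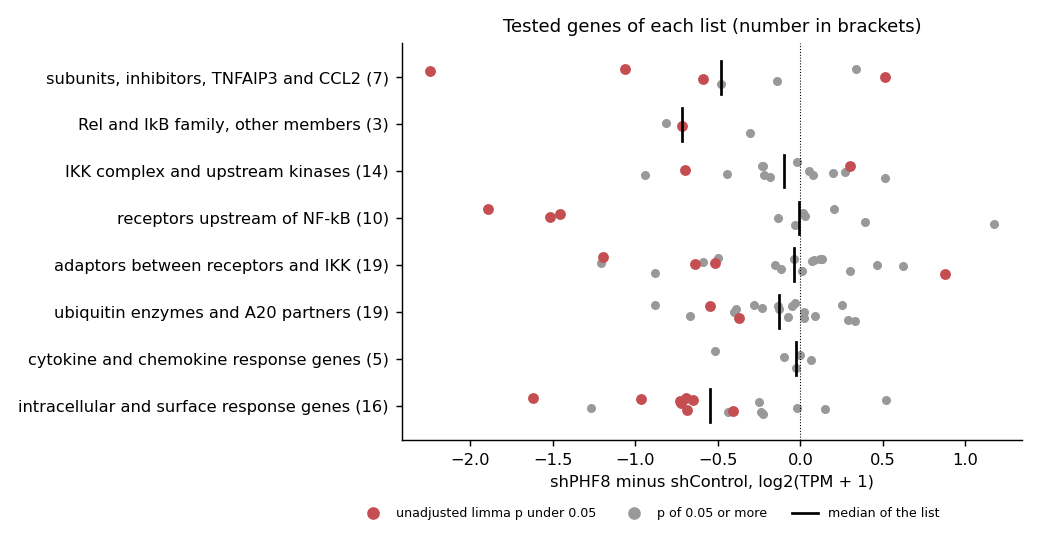
Log2 difference of each tested gene between shPHF8 and shControl after adding 1 to each TPM (horizontal axis, above 0 where shPHF8 is higher), by list; red points have an unadjusted limma p under 0.05, grey points do not, black lines are list medians, and points are spread vertically only to separate them. The 8 red points of the intracellular and surface list all lie below 0, and those of the cytokine list are absent.

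Likeness was measured as the distance between log2 values centred on the control mean over the 4 libraries, among the 86 pathway genes. Nearest to NFKB2 were TNFAIP2 (distance 0.56) and IKBKE (0.57), with 330 of 10971 other genes at least as close as TNFAIP2. RBCK1 was among the nearest to TNFAIP3 (0.12), with 41 genes at least as close. Nearest to CCL2 were CD40 (1.04) and TNFRSF12A (1.10), with 38 genes at least as close as CD40. With 4 libraries many genes share a pattern, and these distances describe the libraries only.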

How the data were processed

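RNA was sequenced from 4 libraries of K562 cells, 2 shControl and 2 shPHF8, grouped by their titles. The authors deposited 1 table, in TPM per transcript and library, per the file headers. A second set of deposited columns, a signal with no stated unit, was an exact multiple of TPM in each library and was not used. HISAT2 2.0.4, StringTie 1.2.3 and hg19 are named, per the submitters' processing notes; the annotation and strandedness are not stated there. TPM keep no read numbers, so depth is unknown and the spread between libraries is the sole measure of precision.

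TPM were summed per gene name. Values were tested as log2(TPM + 1), which understates changes of low genes, with limma 3.58.1 in R 4.3.3 (empirical Bayes with trend, two-sided, Benjamini-Hochberg adjustment over all genes or transcripts, threshold 0.05) where the mean was at least 1 TPM. Residual degrees of freedom were 2 and prior degrees 2.16. The fit was tested on simulated data. With 2 libraries a group the smallest two-sided exact permutation p is 0.333, so that test was not used. Transcript coding regions were compared by genome position in GENCODE 29, on another build, with no coordinates printed. Of 22 member transcripts 22 were found there.

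The members and lists were chosen with earlier results of these data known. The 7 genes, PHF8, 3 genes of smallest p per list (all of the Rel and IkB list) and 2 nearest pathway genes for NFKB2, TNFAIP3 and CCL2 were named by rule, except that 1 gene is not reported here. Alternatives were pseudocount, filters, scaling, trend, replicate block and leaving out each library. Tables and figures used Python 3.11.15, pandas 2.3.3 and matplotlib 3.10.9.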

Additional observations from a re-analysis of the deposited data

How the results depend on the processing

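The number of genes called by limma over all genes was 0 and became 37 with quantile normalization, with 0 of the 7 NF-kB genes among them. The number of transcripts called was 1 and became 4 with a mean-TPM minimum of 5 or quantile normalization, 0 without the mean-variance trend, 0 with the replicate block, and 0 to 0 when each library was left out in turn. The 4 NF-kB genes with an unadjusted p under 0.05 ranged from 2 to 5 when each library was left out, and the 20 pathway genes from 12 to 18. In those fits the group with 1 library is assumed to vary like the other. The log2 difference of RELA ranged from -0.96 to 0.0050 and that of NFKBIB from -0.30 to 0.016, both turning positive without shControl replicate 2. REL ranged from -0.70 to 0.095, turning positive without shPHF8 replicate 1. CXCL3 ranged from -0.44 to 0.24, with 0.022 without shControl replicate 1 and 0.24 without shPHF8 replicate 2. NFKB1, NFKB2, NFKBIA, TNFAIP3 and CCL2 kept their direction in every alternative that tested them, and none of the 7 genes passed the adjusted threshold in any. The replicate numbers pair nothing in the labels, and the deviations of same-numbered libraries had a correlation of -0.029 over 10972 genes. With the replicate block 4 NF-kB genes and 19 pathway genes had an unadjusted p under 0.05. The depth is unknown, which limits genes of few TPM such as CCL2, listed at 0 in 1 library.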
